A study of Rattus norvegicus with 65 samples.

Results

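Of the 14554 genes measured in cultured neonatal rat cardiomyocytes, 196 were near-silent in the control cultures at 24 hours and present at readily counted levels after 24 hours of doxorubicin (Dox). They were chosen from these same libraries by their level in CPM (the gene's count divided by its library's total and multiplied by 1000000): a mean below 1 CPM in the DMSO2 cultures at 24 hours and a mean of 5 CPM or more in the Dox cultures at 24 hours. In all, 1820 genes were below 1 CPM in DMSO2 at 24 hours, so that 1624 near-silent genes did not reach the upper limit. Because the rule uses the Dox and DMSO2 levels at 24 hours, these are given as a description and are not tested. For the 196 genes the tests concern the other groups, except that Ace at 24 hours is compared with these same DMSO2 libraries.

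The cells were primary cardiomyocytes isolated from newborn rats, mixed from several litters before plating and treated in serum-free medium for 6 or 24 hours. Dox was given at 1.25 µM and acetaminophen (Ace) at 2.5 mM, both with 0.25% DMSO as the control (DMSO2), and 5-fluorouracil (5FU) at 10 mM with 1% DMSO as the control (DMSO1). The DMSO2 and Dox groups at both times and Ace at 24 hours had 7 libraries each and the other 5 groups 6, which makes 65 libraries in 10 groups. Each library is 1 culture plated from that mix, and the p-values measure only the spread between cultures. These are bulk cultures, in which fewer cells of a type and less RNA per cell cannot be told apart.

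A heart cell carries the genes of every other lineage but keeps most of them silent through packed chromatin, Polycomb repression, DNA methylation or the absence of their activators. Doxorubicin inserts between DNA bases, traps topoisomerase II on broken DNA and can dislodge histones from chromatin. DNA breaks stabilise p53, which turns on genes of cell cycle arrest and apoptosis. Nkx6-1 is a homeodomain factor of pancreatic beta cells and the ventral spinal cord, and Bhlhe23 is a basic helix-loop-helix (bHLH) factor of the retina and brain.

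All 8 cardiomyocyte markers, such as Tnnt2 and Myh6 of the contractile apparatus, were at 5 CPM or more in every group. Their sum went from a median of 37230 CPM in DMSO2 to 27020 CPM in Dox at 24 hours, with markers moving in both directions. The mean of Myh6 fell from 17820 to 1058 CPM, that of Tnnt2 went from 6789 to 6060 CPM and that of Nppa rose from 1059 to 12570 CPM. The summed fibroblast markers (6 of 6 measured) had a median of 16130 CPM in DMSO2 at 24 hours and 3571 CPM in Dox at 24 hours. Of 8 neuron markers only 4 were among the genes analysed, without Rbfox3, Snap25, Stmn2 and Syp, and their sum ran from 8.54 to 10.3 CPM in DMSO2 and from 25 to 42.1 CPM in Dox at 24 hours, most of it Tubb3. Over the same pair of groups the summed endothelial markers (5 of 6 analysed) went from a median of 209 to 32.4 CPM, the macrophage markers (6) from 70.9 to 26 CPM and the smooth muscle markers (4) from 489 to 1396 CPM. Of the 4 Schwann cell markers listed, 2 were among the genes analysed, without Sox10, and their sum went from 6.40 to 2.37 CPM. Both T cell markers that were analysed, of 4 listed, had means below 1 CPM in these groups. The part of these shifts in the levels below was not tested.

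Libraries are numbered here by column order within each group, because the columns carry no replicate numbers. The same number in different groups therefore does not mark a matched culture. Library 7 of Dox at 24 hours stood apart. Its total of 25738297 counts compares with 15921229 to 17856544 in the other 6, its summed smooth muscle markers were at 295 CPM against 1178 to 1633 CPM, and its fibroblast markers at 1818 CPM against 3214 to 4248 CPM. In Dox at 6 hours library 7 had a smooth muscle sum of 992 CPM against 2153 to 3021 CPM. Without library 7 at 24 hours the rule took 204 genes, of which 193 are among the 196.

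Kinds were assigned by patterns in the gene symbols, so the counts are minimum counts. By symbol, 20 of the 196 genes encode DNA-binding transcription factors, which is 10.2% of them, beside 7.08% of the near-silent genes that stayed below the limit and 6.10% of all genes. The homeobox factors were Nkx6-1, Msx3, Gbx1, Pou3f1 and Pou3f3, and the bHLH factors Bhlhe23, Mycl and Npas1. A further 12 came from other families, among them Sp6 and Sp9 (zinc finger), Sox3 and Sox30 (HMG box), Foxe1 and Foxd1 (forkhead), and the nuclear receptors Nr4a3 and Pgr. Channels and transporters numbered 12, G protein-coupled receptors 10, and ligands or hormones 7 (Efna3, Artn, Nppc, Nog, Wnt6, Dhh and Gip). Genes of germ cells, sperm or cilia numbered 5, without Ccdc96, a coiled-coil gene whose symbol matched no pattern. The shares of these kinds were 6.1% (channels and transporters), 5.1% (receptors), 3.6% (ligands or hormones) and 2.6% (germ cells, sperm or cilia). In the other near-silent genes they were 7.6%, 3.9%, 4.3% and 3.2%, and in all genes 4.3%, 1.4%, 1.8% and 1.0%. Histone genes numbered 8, or 4.08%, beside 0.616% of the other near-silent genes and 0.234% of all genes. Histone genes have near-identical copies among which the read assignment could split reads, and most histone transcripts carry no polyA tail, so their levels are uncertain. The remaining genes were 126 that fitted none of these kinds and 8 without an assigned symbol. In total 190 of the 196 are annotated as protein-coding.

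The start regions of 4 of the genes are shown as examples, from genes whose levels in Dox are described below, of how the number of CG dinucleotides varied. Each runs 5′ to 3′ on the gene's strand, from 250 bases before to 50 bases after the transcript start of the RefSeq annotation of assembly GRCr8, with every CG in capitals. Nkx6-1 (chr14:8273988-8274287, plus strand) holds 21 CG, Bhlhe23 (chr3:188268737-188269036, minus strand) 21, Msx3 (chr1:204271567-204271866, minus strand) 16 and Ppp2r2c (chr14:78156163-78156462, minus strand) 38.
Nkx6-1: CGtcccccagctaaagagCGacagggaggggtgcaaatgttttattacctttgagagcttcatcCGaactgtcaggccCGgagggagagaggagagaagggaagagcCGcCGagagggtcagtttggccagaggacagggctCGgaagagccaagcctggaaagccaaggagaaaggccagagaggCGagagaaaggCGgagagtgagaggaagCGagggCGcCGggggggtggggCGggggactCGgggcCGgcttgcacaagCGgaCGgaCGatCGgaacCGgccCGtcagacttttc
Bhlhe23: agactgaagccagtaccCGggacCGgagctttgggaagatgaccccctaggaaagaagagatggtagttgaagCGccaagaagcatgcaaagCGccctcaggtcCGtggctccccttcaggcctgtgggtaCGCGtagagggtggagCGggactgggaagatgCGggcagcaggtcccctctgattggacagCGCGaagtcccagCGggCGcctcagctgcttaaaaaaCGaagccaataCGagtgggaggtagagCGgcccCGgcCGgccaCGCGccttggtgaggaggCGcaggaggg
Msx3: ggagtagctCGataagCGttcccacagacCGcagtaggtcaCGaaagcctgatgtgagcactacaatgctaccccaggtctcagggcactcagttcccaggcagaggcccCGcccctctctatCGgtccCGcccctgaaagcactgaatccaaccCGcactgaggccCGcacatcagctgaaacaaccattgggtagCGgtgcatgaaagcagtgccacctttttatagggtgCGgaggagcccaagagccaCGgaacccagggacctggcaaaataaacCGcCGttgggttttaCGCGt
Ppp2r2c: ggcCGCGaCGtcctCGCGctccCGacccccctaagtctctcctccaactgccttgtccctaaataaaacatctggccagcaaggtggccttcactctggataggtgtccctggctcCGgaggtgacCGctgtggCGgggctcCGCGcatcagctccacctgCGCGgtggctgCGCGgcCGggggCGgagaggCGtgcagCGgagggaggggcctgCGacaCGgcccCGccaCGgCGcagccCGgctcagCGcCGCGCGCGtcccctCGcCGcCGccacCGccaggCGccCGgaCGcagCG

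Such a window was found for 148 of the 196 genes. The ratio of observed to expected CG was 0.6 or more in 56.1% of them, beside 36.3% of the 1164 windows of other near-silent genes, 68.0% of the 11403 windows of all genes analysed and 36.9% of all 27457 RefSeq windows. Their median ratio was 0.64, against 0.44 in the other near-silent genes and 0.75 in all genes analysed, so that by this measure the switched-on genes lay between both sets. GGGCGG, the core of a GC box, occurred on either strand in 60.8% of the windows, beside 43.3% of the other near-silent genes, 60.4% of all genes analysed and 34.9% of all RefSeq windows. TATAAA occurred in 11.5%, as in 11.5% of the other near-silent genes, 7.28% of all genes analysed and 14.3% of all RefSeq windows. A p53 half-site, searched on both strands, occurred in 12.2%, beside 7.47%, 6.78% and 7.88% in the same order, and TGACGTCA, the cyclic AMP response element, in none of the 148, beside 2.06%, 2.96% and 1.91%. These matches are descriptions of the letters and say nothing of factor binding.

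**Figure D1:**
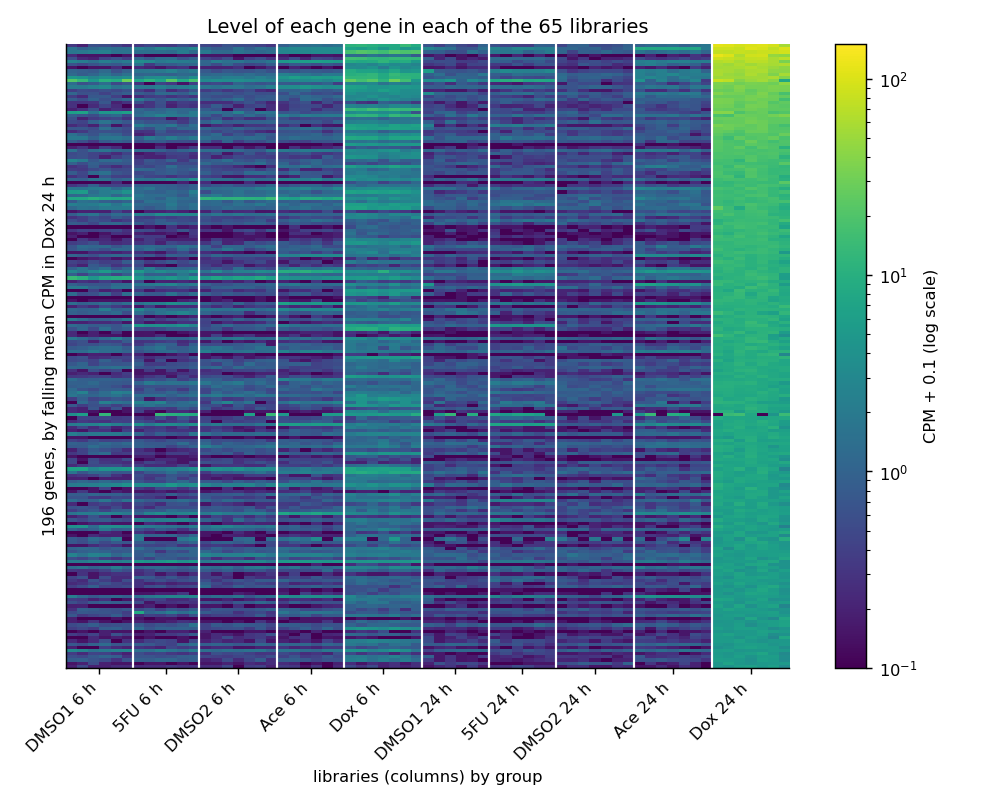
Level of each of the 196 genes (rows, ordered by their mean in Dox at 24 hours) in each of the 65 libraries (columns, by group), as CPM plus 0.1 on a logarithmic colour scale. The Dox 24 h libraries, which chose the genes, are bright throughout, the Dox 6 h libraries are intermediate, and the 8 groups without Dox are mostly dark, with single rows that stand out at 6 hours or in Ace.

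At 24 hours of Dox the summed level of the 196 genes had a median of 2899 CPM (range 2403 to 3049 CPM over 7 libraries), against 85.6 CPM (75.1 to 92.4 CPM) in DMSO2. In the other 7 groups outside Dox the median sum lay between 101 CPM (DMSO1, 24 hours) and 187 CPM (Ace, 6 hours), and in Dox at 6 hours it was 513 CPM (453 to 552 CPM). The mean level in Dox at 24 hours was 9.28 CPM for the median gene and at most 94.7 CPM, with 89 genes at 10 CPM or more, 32 at 20 CPM or more and 11 at 50 CPM or more. Most of the genes were thus switched on to a low level. For 183 of them every Dox 24 h library was above all 51 libraries without Dox, as for 20.1% of all genes, and for 119 the mean was below 1 CPM in all 8 groups without Dox. Every Dox 24 h library was above every DMSO2 24 h library for 195, where 34.8% of all genes showed this. The rule used the Dox 24 h libraries, so nothing is read from either count.

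Nkx6-1 was at 43.6 to 119 CPM in Dox at 24 hours, with a median of 87.8 CPM. In DMSO2 at 24 hours no library had more than 2 counts, so that the mean in Dox was at least 492-fold higher than the floor of 3 counts per library. In the 51 libraries without Dox it did not exceed 0.209 CPM. Bhlhe23 was at 43.1 to 63.9 CPM in Dox at 24 hours (median 55.4 CPM), at least 342-fold over the same floor, and at most 0.257 CPM without Dox. Msx3, a homeobox gene of the dorsal neural tube, had not a single count in the DMSO2 libraries of either time and was at 18 to 23.6 CPM (median 20.1 CPM) in Dox at 24 hours. The Dox libraries of Nkx6-1 lay far apart, while those of Msx3 lay close together, and for none of the 3 genes did any Dox library overlap a library without Dox. Among the other factors named by their CPM in Dox, Sp6, a zinc finger factor of teeth and skin, reached a median of 30.6 CPM, Creb3l4, a membrane-bound bZIP factor, 20.2 CPM, and Sox3, a factor of neural progenitors, 13.8 CPM.

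By CPM, which is not scaled by gene length, the highest mean in Dox at 24 hours was that of Lratd1, which encodes a protein with a lecithin retinol acyltransferase domain. It was at 55.8 to 111 CPM there (median 99.1 CPM) and at 0.344 to 0.926 CPM in DMSO2. Plk5, a polo-like kinase family member, followed with 74.5 to 104 CPM (median 89.3 CPM) against 0.516 to 1.04 CPM. Ccdc96 was at 73.5 to 91.7 CPM (median 82.2 CPM), and Ppp2r2c, a regulatory subunit of protein phosphatase 2A found mainly in brain, at 59.3 to 84.9 CPM (median 77.2 CPM). Nptx2, a pentraxin released at synapses, was at 34.4 to 73.0 CPM, Pinlyp, named for its phospholipase A2 inhibitor and Ly6 domains, at 42.3 to 61.5 CPM, Izumo4, of a family of sperm-egg fusion proteins, at 36.4 to 61.1 CPM, and Trim36, a ubiquitin ligase, at 38.4 to 59.2 CPM. The annotated span of Izumo4 overlaps that of Mob3a on the other strand, and Mob3a rose from a mean of 18.9 to 42.4 CPM. Reads from any sequence that both genes share cannot be told apart, and whether they share exons was not examined. Sel1l3 was at 29.6 to 43.3 CPM. Tceal7, a transcription elongation factor-like gene, differed widely between cultures, from 7.69 to 80.9 CPM. Of the 196 genes, 26 overlap another analysed gene, and 8 spread 3-fold or more within Dox at 24 hours.

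**Figure D2:**
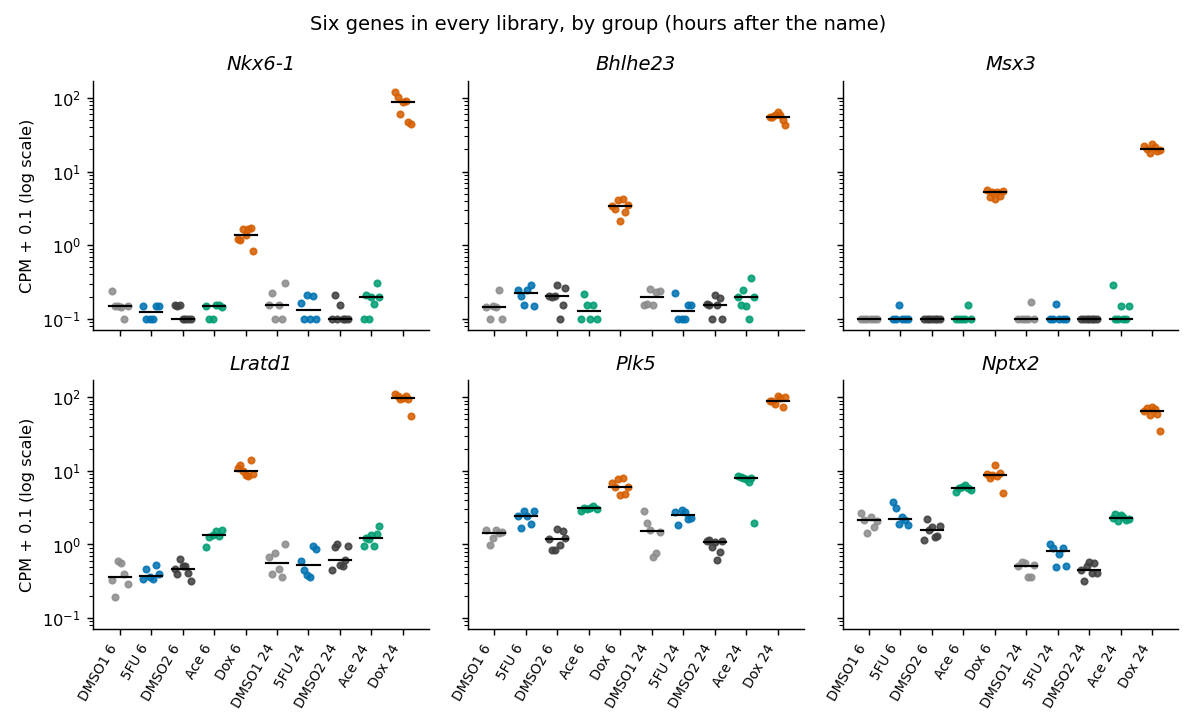
CPM plus 0.1 (log axis) of Nkx6-1, Bhlhe23, Msx3, Lratd1, Plk5 and Nptx2 in every library, by group, with the median as a black bar. Nkx6-1, Bhlhe23 and Msx3 leave the base line only in the Dox groups, while Plk5 and Nptx2 also stand higher in Ace.

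The first question was whether the genes had already risen after 6 hours of Dox, in libraries that the rule did not use. Of the 196 genes, 162 were higher and 3 lower in Dox than in DMSO2 at 6 hours (edgeR quasi-likelihood test, adjusted p below 0.01), where 31.5% of all 14554 genes were called higher and 32.7% lower. The 162 are 82.7% of the genes, and 26.4% of the near-silent genes that stayed below the limit were called higher. The median log2 fold change was 1.88, or 1.64 with genes at the floor in the control set to their bound, against 0.00 over all genes. For 116 of the 196 every Dox library was above every DMSO2 library at 6 hours, which holds for 12% of all genes. Of the 28 genes with 10 counts or more in fewer than 6 libraries outside Dox at 24 hours, 15 were called higher. No gene of the deposited table had fewer than 6 such libraries in all, so these 28 may have entered it only through the Dox 24 h libraries. Without library 7 of Dox at 6 hours, 158 were called higher. At 6 hours the summed smooth muscle markers ran from 992 to 3021 CPM in Dox against 742 to 1158 CPM in DMSO2, the fibroblast markers from 6954 to 9491 CPM against 9709 to 15150 CPM, and the 4 neuron markers from 16.1 to 26.2 CPM against 16.2 to 19.7 CPM, and their part in these calls was not tested.

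The levels at 6 hours were far below those at 24 hours: the 6-hour mean was 16% of the 24-hour mean for the median gene (range 0.280% to 117%), and 132 genes were at 1 CPM or more, where 40 were in DMSO2 at 6 hours. The rule asked for a high level in Dox at 24 hours, which favours a lower level at 6 hours, so nothing is read from the difference between the times. Nkx6-1 was at 0.725 to 1.58 CPM in Dox (median 1.26 CPM), while no DMSO2 library had more than 1 count. All 7 Dox libraries were above all 51 without Dox, and the mean was at least 8.24-fold over the floor (adjusted p = 7.6e-15). Bhlhe23 was at 2.02 to 4.18 CPM (median 3.26 CPM) against 0 to 0.183 CPM, a log2 fold change of 5.05 ± 0.26 (SE, adjusted p = 2.9e-26). Msx3 was at 4.19 to 5.47 CPM (median 5.16 CPM), with no count in any DMSO2 library, and so at least 32-fold higher (adjusted p = 8.1e-27). For these 3 developmental factors the groups did not overlap.

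Of the 20 transcription factors, 19 were called higher at 6 hours and none lower, beside 82.7% and 1.53% of the 196 and 31.5% and 32.7% of all genes. The factor that was not called was Npas1, a bHLH-PAS factor of neurons. Sp6 was at 1.92 to 3.12 CPM (median 2.45 CPM) against 0.0915 to 0.751 CPM in DMSO2 (log2 fold change 2.99 ± 0.27, adjusted p = 1.2e-15). Creb3l4 was at 1.16 to 1.65 CPM (median 1.42 CPM) against 0.25 to 0.962 CPM (1.40 ± 0.24, adjusted p = 4.6e-07). Nr4a3, an orphan nuclear receptor that many stimuli induce, was at 3.57 to 7.27 CPM (median 5.76 CPM) against 0.780 to 1.23 CPM (2.71 ± 0.20, adjusted p = 1.7e-19). Sox3 was at 0.421 to 1.25 CPM and Pgr, the progesterone receptor, at 0.303 to 1.16 CPM, both with at most 1 count per DMSO2 library and at least 5.08-fold and 4.09-fold over the floor (adjusted p = 1.7e-12 and 4e-12). Of the other kinds, 9 of 10 G protein-coupled receptors, 7 of 12 channels and transporters, 7 of 8 histone genes, 4 of 5 germ cell or cilium genes and 5 of 7 ligands or hormones were called higher, and none of these kinds had a gene called lower. Most of the 196 were called higher and few lower, so nothing is read from these counts about any single kind.

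By CPM, again not scaled by gene length, the highest means at 6 hours were those of Ccdc96, Tceal7, Palm3, Ppp2r2c, Trim36 and Rhov. Ccdc96 was at 15.4 to 21.4 CPM (median 18.9 CPM) against 1.10 to 1.87 CPM in DMSO2 (log2 fold change 3.97 ± 0.13, adjusted p = 1.6e-36). Palm3, a paralemmin of the inner membrane face, was at 12 to 16.1 CPM (median 13.7 CPM) against 0 to 0.728 CPM (5.47 ± 0.25, adjusted p = 1.2e-28), and Ppp2r2c at 11.6 to 15.6 CPM (median 12.8 CPM) against 0.0458 to 0.481 CPM (5.59 ± 0.22, adjusted p = 2.1e-32). From 6 to 24 hours of Dox the median of Palm3 went from 13.7 to 27.3 CPM and that of Ppp2r2c from 12.8 to 77.2 CPM. Rhov, an atypical small GTPase, was at 6.87 to 13.1 CPM (median 11.4 CPM) against 0.400 to 1.23 CPM (3.83 ± 0.20, adjusted p = 8.2e-26), and Lratd1 at 8.42 to 13.9 CPM (median 9.97 CPM) against 0.217 to 0.535 CPM (4.95 ± 0.20, adjusted p = 5.2e-32). Tceal7 varied between Dox cultures at 6 hours too, with 4.79 to 29.4 CPM against 2.55 to 3.62 CPM (2.64 ± 0.36, adjusted p = 3.3e-09). The same limits applied to the 6-hour groups took 18 genes, 14 of them among the 196. Of the other 4, Lrrc4 had a mean of 5.40 CPM at 6 hours and 12.8 CPM at 24 hours of Dox. Stmn4 went from 6.40 to 0.973 CPM, Cfap141 from 7.79 to 4.94 CPM and a gene without an assigned symbol from 9.1 to 1.18 CPM. The rule leaves out genes that are high only at 6 hours.

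**Figure D3:**
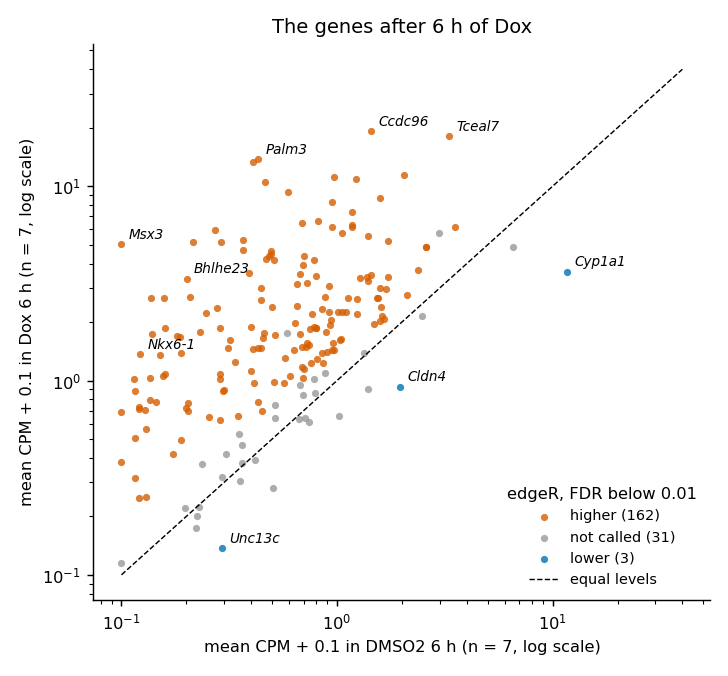
Mean CPM plus 0.1 of each of the 196 genes in DMSO2 (horizontal) and Dox (vertical) at 6 hours, both on log axes, with 7 libraries in each group. Of the points, 162 are called higher and lie above the dashed line of equal levels, 31 are not called and 3 (Cyp1a1, Cldn4 and Unc13c) are called lower.

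A minority was late or moved the other way. The 3 genes that were lower at 6 hours, named after their values were seen, were Cyp1a1, a detoxifying enzyme induced through the aryl hydrocarbon receptor, Cldn4, a tight junction protein, and Unc13c, a synaptic vesicle priming protein. Cyp1a1 was at 9.89 to 14.4 CPM in DMSO2 at 6 hours and at 2.52 to 4.71 CPM (median 3.39 CPM) in Dox (log2 fold change -1.55 ± 0.15, adjusted p = 2.8e-14), but at 0.459 to 1.33 CPM in DMSO2 at 24 hours. Its control level was thus low at 24 hours but not at 6 hours. Grin2c, an NMDA receptor subunit, was at 0.116 to 0.421 CPM in Dox against 0.156 to 0.5 CPM at 6 hours (0.03 ± 0.32, adjusted p = 0.95) and at 2.99 to 7.33 CPM in Dox at 24 hours. In the same way Wnt6, a secreted ligand, and Ntrk3, the neurotrophin-3 receptor, were not called at 6 hours (0.34 ± 0.41, adjusted p = 0.47, and 0.47 ± 0.56, adjusted p = 0.46). Magel2, also named after its value was seen, was the single gene with a higher mean in Dox at 6 hours (8.16 CPM) than at 24 hours (6.99 CPM). The rule makes such genes rare, because it asks for a high level at 24 hours.

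The second question was whether the other drugs moved the same genes. In 5FU against DMSO1, 32 of the 196 genes were called higher and 22 lower at 6 hours, where 23.4% of all genes were called higher and 24.5% lower. After 24 hours of 5FU the counts were 30 higher and 23 lower, where 28% and 27.8% of all genes were called. At both times and in both directions these are smaller shares than among all genes. The other near-silent genes were called higher in 8.87% (6 hours) and 9.48% (24 hours), below the 16.3% and 15.3% of the 196. In Ace against DMSO2 at 6 hours, 37 were higher and 8 lower (16.5% and 15.2% of all genes), and for 24 hours of Ace the counts were 46 and 6 (18.2% and 19.1% of all genes). The 24-hour Ace comparison uses the same DMSO2 libraries that had to be low for a gene to be chosen, so its counts are not independent of the choice. Of the other near-silent genes 4.50% were higher in Ace at 6 hours and 7.45% at 24 hours, beside 18.9% and 23.5% of the 196. At 6 hours, 14 genes were called higher both in 5FU (43.8% of its 32) and in Ace (37.8% of its 37), among them Bicdl1, Efna3, Gpr137c, Hrh3, Plk5, Rhov and Rprm. Among all genes 1020 were called higher in both, which is 29.9% of those higher in 5FU and 42.4% of those higher in Ace. The limits of 1 and 5 CPM themselves took 2 genes in 5FU and 2 in Ace at 24 hours and none at 6 hours, and of these only Plk5, in Ace, is among the 196.

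**Figure D4:**
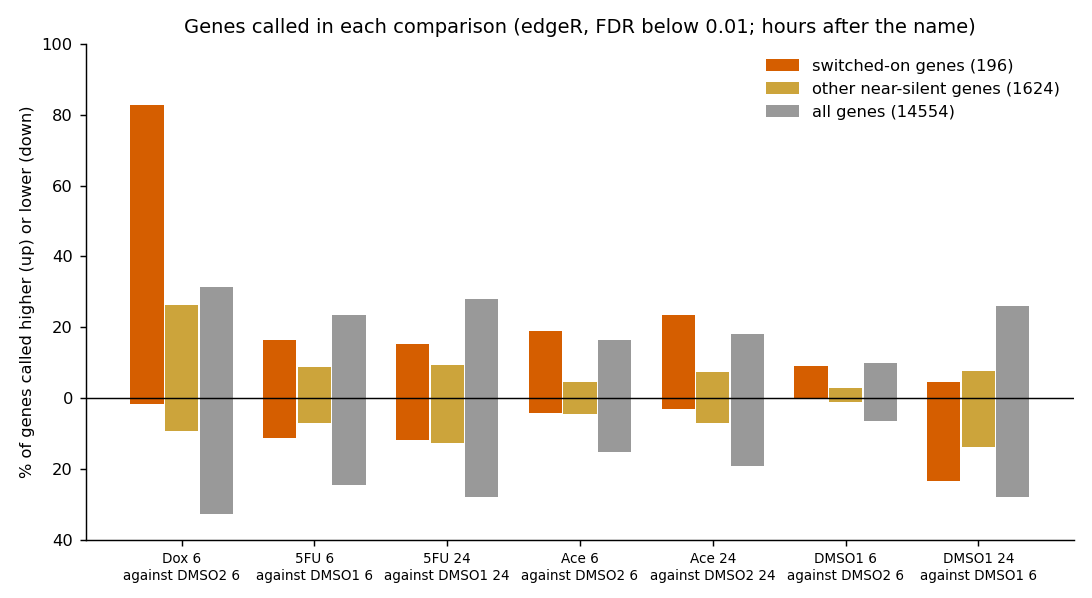
Share of genes called higher (up) or lower (down) in each comparison (edgeR, adjusted p below 0.01), for the 196 switched-on genes, the 1624 other near-silent genes and all 14554 genes. The 196 genes exceed all genes widely in Dox at 6 hours (82.7% against 31.5% higher), and much less or not at all in the comparisons without Dox.

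Nkx6-1, Bhlhe23 and Msx3 were called in neither direction in 5FU or Ace, and in those groups no library of the 3 had more than 5 counts. Plk5 was at 1.86 CPM in library 7 and at 6.99 to 8.55 CPM in the other 6 libraries (median of all 7.87 CPM) in Ace at 24 hours against 0.516 to 1.04 CPM in DMSO2 (log2 fold change 2.94 ± 0.22, adjusted p = 6.9e-18) and at 2.77 to 3.23 CPM (median 3 CPM) in Ace at 6 hours against 0.749 to 1.51 CPM (1.5 ± 0.24, adjusted p = 5.2e-07). Nptx2 was at 5.08 to 6.36 CPM (median 5.73 CPM) in Ace at 6 hours against 1.04 to 2.10 CPM (1.97 ± 0.17, adjusted p = 2.3e-14). For both genes the Ace libraries lay above all DMSO2 libraries of the same time, and the Plk5 libraries in Ace lay below all those in Dox at 24 hours. The rule asked for a low level in DMSO2 at 24 hours, so the 24-hour Ace result of Plk5 is not independent of the choice.

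The increases with the largest fitted size in Ace at 24 hours were those of Lrrc38, an accessory subunit of potassium channels, Rprm, a p53-induced gene of cell cycle arrest, and Svop, a transporter-like synaptic vesicle protein. Svop was at 1.42 to 6.60 CPM (median 4.76 CPM) against 0.286 to 1.03 CPM (3.29 ± 0.39, adjusted p = 9.3e-11) and overlaps Usp30, and Rprm at 0.0488 to 1.15 CPM (median 0.528 CPM) against at most 2 counts per control library, at least 3.26-fold over the floor (adjusted p = 7.7e-07). Lrrc38 had no more than 3 counts in any library of either group and gets no fold. These 24-hour results use the DMSO2 libraries of the rule and are likewise not independent of the choice. In Ace at 6 hours the largest fitted increases were those of Pou3f1, a POU factor of neural and Schwann cells, Gpr137c and Efna3, an ephrin ligand. Gpr137c was at 3.95 to 6.46 CPM (median 4.57 CPM) against 0.374 to 1.01 CPM (2.83 ± 0.21, adjusted p = 5.3e-17) and Efna3 at 0.954 to 1.83 CPM (median 1.33 CPM) against 0 to 0.416 CPM (2.81 ± 0.36, adjusted p = 2.1e-09). Pou3f1 was at 0.223 to 0.718 CPM (median 0.507 CPM) against at most 3 counts per control library, at least 3.03-fold over the floor (adjusted p = 2.3e-05).

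For 5FU at 24 hours the largest fitted increases were those of Grin2c, Bicdl1 and Pgr. Bicdl1, an adaptor that links cargo to dynein, was at 5.6 to 7.17 CPM (median 6.48 CPM) against 0.475 to 1.85 CPM in DMSO1 (2.56 ± 0.18, adjusted p = 3.9e-19), about as high as in Dox at 24 hours (5.56 to 9.29 CPM). Grin2c was at 0.169 to 0.450 CPM, at least 1.77-fold over the floor (adjusted p = 1.3e-06), and Pgr at 0.0999 to 0.367 CPM, at least 1.05-fold over it (adjusted p = 0.0026, but 0.012 and so not called without library 1 of 5FU). At 6 hours they were those of Hrh3, the histamine H3 receptor, Adra2a, the alpha-2A adrenergic receptor, and Slc9a2, a sodium-proton exchanger. Adra2a was at 0.472 to 1.66 CPM (median 0.981 CPM) against at most 3 counts per DMSO1 library, at least 7.04-fold over the floor (adjusted p = 1.6e-12). Hrh3 and Slc9a2 had no count in DMSO1 and at most 5 and 4 counts in 5FU, with means below the floor, so no fold is given (adjusted p = 0.0022 and 0.0085). Both calls were lost under some alternatives: that of Slc9a2 under 10, among them leaving out any single DMSO1 library (adjusted p = 0.014 to 0.015) or library 1 or 6 of 5FU (0.045 and 0.016), and that of Hrh3 with only both groups fitted (0.015) or without library 5 of 5FU (0.013).

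The control groups differed as well. Of the 196 genes, 18 (9.18%) were higher in DMSO1 than in DMSO2 at 6 hours and none lower, where 9.87% of all genes were higher and 6.60% lower (edgeR). The higher share is thus no larger than that among all genes. Of the other near-silent genes 2.96% were higher and 1.11% lower. Without an adjustment 34 of the 196 had p below 0.05 in the higher direction and 14 in the lower, and DESeq2 called 2 lower. Tceal7 was at 4.82 to 29.4 CPM in DMSO1 against 2.55 to 3.62 CPM in DMSO2 (2.29 ± 0.38, adjusted p = 3.5e-06), the largest of the 18. The summed smooth muscle markers ran from 917 to 3915 CPM in DMSO1 against 742 to 1158 CPM in DMSO2 at 6 hours, and their part was not tested. The count was 11 without library 1 or library 2 of DMSO1 at 6 hours. Between 6 and 24 hours in DMSO1, 46 of the 196 fell and 9 rose (23.5% and 4.59%), where 27.9% and 25.9% of all genes did. Of the other near-silent genes 13.7% fell and 7.51% rose. The comparison used no library of the rule, but the rule asks for a low level in a DMSO control at 24 hours. That favours genes that fall with time in culture, so nothing is read from the excess of falls. The 9 became 5 without library 2 of DMSO1 at 6 hours. Among the named genes Nptx2 (-2.40 ± 0.28, adjusted p = 1.8e-11) and Trim36 (-2.07 ± 0.19, adjusted p = 1.4e-14) fell, as did Ccdc96 (-1.22 ± 0.19, adjusted p = 1.6e-07). In all, 12 of the 196 genes had a mean of 5 CPM or more in at least 1 group without Dox, such as Cyp1a1 with 11.6 CPM in DMSO2 at 6 hours, so that near-silence in the 24-hour control was not shared by every group.

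Other genes of related pathways were taken from lists made by function. Of 130 developmental transcription factors, 56 were among the genes analysed and 6 of these are among the 196 (Nkx6-1, Bhlhe23, Foxd1, Foxe1, Sox3 and Gbx1). Of the remaining 50, 26 were called higher and 6 lower after 6 hours of Dox. Their median log2 fold change at 6 hours was 1.01, or 0.60 with genes at the floor set to their bound, against 0.00 for all genes. Of these 50, 34 were near-silent in DMSO2 at 24 hours. Some of them could pass the count filter of the deposited table only through the Dox libraries. The counts and the median of this list are therefore not independent of that filter, and nothing is read from the excess of higher calls. For lists that hold near-silent genes outside the 196 no 24-hour counts are given, because the rule removed from them the genes that passed its upper limit. Sox8, an HMG-box factor of neural crest, had a mean of 2.18 CPM in DMSO2 and 81.6 CPM in Dox at 24 hours (log2 fold change 5.17 ± 0.12, adjusted p = 1.4e-44). Hand1, a bHLH factor of heart development, had 4.19 and 23.4 CPM (2.43 ± 0.12, adjusted p = 6e-29) but was lower in Dox at 6 hours (-0.48 ± 0.12, adjusted p = 0.00052). Both lay above the lower limit of the rule in DMSO2 and were named after their values were seen.

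Of 34 Polycomb genes measured, 14 were higher and 11 lower at 6 hours, where 31.5% of all genes were called higher and 32.7% lower. The 24-hour counts were 14 and 13, with a median log2 change of 0.01, where 40.4% of all genes were called higher and 41% lower at 24 hours. The same shares of all genes stand beside the counts of the lists that follow. Ezh2, the methyltransferase of Polycomb complex 2, was higher at both times (0.82 ± 0.06, adjusted p = 1.9e-19 at 6 hours, and 1.75 ± 0.06, adjusted p = 3.2e-36 at 24 hours). Of 15 DNA methylation genes, 10 were lower at each time and 1 and 3 were higher, and Dnmt1, the maintenance methyltransferase, fell by 0.38 on the log2 scale at 24 hours (adjusted p = 2.7e-08). The Trithorax and demethylase genes (15 measured) gave 4 higher and 3 lower genes at 6 hours, then 8 and 2. None of the genes of these 3 lists was near-silent in DMSO2 at 24 hours, and none is among the 196. Of 29 p53 target genes outside the 196, 19 were higher and 4 lower at 6 hours, 24 and 4 after 24 hours, and 2 further targets, Rprm and Sfn, are among the 196. Sfn, the cell cycle inhibitor 14-3-3 sigma, was not called at 6 hours (0.51 ± 0.27, adjusted p = 0.089). Of 43 other neuronal genes, 8 were higher and 9 lower at 6 hours, and of 15 other germline genes 3 were higher and 2 lower. In these lists 18 and 8 genes were near-silent in DMSO2 at 24 hours, so the same limit of the count filter holds.

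Genes next to each other on a chromosome made up 4 pairs among the 190 genes with a position in the annotation, namely Cds1 with Nkx6-1, Yjefn3 with Cilp2, Hist1h2an with H4f3, and a pair without assigned symbols. The genes lay on 21 chromosomes.

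The limits of the rule cut through a continuous range of levels. The genes just inside the upper limit were Wnt6 (mean 5.02 ± 1.11 CPM in Dox at 24 hours, SD, n = 7), Ntrk3 (5.03 ± 0.88 CPM) and Plcxd2 (5.05 ± 1.01 CPM), and just outside were Aloxe3 (4.98 ± 0.41 CPM), Slc10a4 (4.96 ± 1.31 CPM) and Atp12a (4.94 ± 1.19 CPM). The means of these 6 genes lie closer together than the spread of any one of them. At the lower limit, genes just inside were Igsf11, an adhesion molecule (0.985 CPM in DMSO2 at 24 hours), and Ocln, the tight junction protein occludin (0.979 CPM), and the first outside were Tchh, C9h6orf132 and Foxq1, all just above 1 CPM. At least 1 Dox 24 h library lay below 5 CPM for 61 of the 196 genes.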

How the data were processed

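Total RNA of 65 cultures was sequenced as paired 150-base reads from polyA-selected libraries. The authors quantified transcripts with kallisto 0.46.0 on Ensembl v96, summed them to Entrez genes with tximport, removed genes with few counts and deposited estimated counts, which were rounded here to whole numbers for the tests. Library totals ran from 14332827 to 25738297 counts. Near-identical copies can share reads by estimation. Strand was not used, so reads from sequence shared by overlapping genes cannot be told apart. Overlaps were taken from annotated gene spans, not from exons.

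CPM was computed from each column total. The 196 genes and all lists were chosen with earlier results of these data known. Groups came from the labels and were fitted together by the edgeR 4.0.16 quasi-likelihood test with TMM scaling in R 4.3.3, with Benjamini-Hochberg adjustment over 14554 genes and a threshold of 0.01. Folds against a control with at most 3 counts in every library are given over a floor of 3 counts per library. The named genes were Nkx6-1, Bhlhe23, those with the highest means in Dox, the transcription factors with the highest means, those with the largest fitted increase per drug and time, and those next to a limit. On data simulated for Dox against DMSO2 at 6 hours over 14554 genes, the test recovered 98% of genes raised and 92% of genes lowered by a log2 change of 1. The changed genes were drawn only from those above a minimum expected count in DMSO2. The simulation used a fixed spread between libraries and a fit of both groups alone. These rates therefore do not describe genes near the floor or the fit of all 10 groups. Alternatives were DESeq2 1.42.0, other scalings, thresholds and filters, fits of the groups compared alone, other limits of the rule, and leaving out each library. Promoter windows came from RefSeq on GRCr8, not the authors' annotation, and 48 genes without a matched window were left out. Genes were named by rank in CPM, which is not per length, so such ranks are not an order of transcript abundance. The symbol patterns for kinds were extended after the values were seen to take in H4f3, Dhh and Gip. Some items are not reported here.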

Additional observations from a re-analysis of the deposited data

Results flagged for a closer look

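In 11 of 98 tests of a gene or sum in a group of 6 or 7 libraries, 1 library lay far from the others, where chance gives about 1 in 20. For the summed level of the 196 genes this was library 7 of DMSO2 at 6 hours (153.9 CPM, group median 139.7 CPM) and library 7 of Ace at 24 hours (111.5 CPM, group median 150.7 CPM). In Ace at 24 hours library 7 was also low for Plk5 (1.86 CPM, group median 7.87 CPM).

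Library 7 of Dox at 24 hours stood apart for 5 genes. It was low for Lratd1 (55.8 CPM, group median 99.1 CPM), Nptx2 (34.3 CPM, median 64.7 CPM), Sox3 (6.95 CPM, median 13.8 CPM) and Pou3f1 (4.82 CPM, median 13.1 CPM), and high for Sel1l3 (43.3 CPM, median 34.4 CPM). This library also had the highest total count and the lowest smooth muscle sum of its group, and the part of either in these levels was not tested. In the same group library 2 was high for Ntrk3 (6.87 CPM, median 4.89 CPM). In Dox at 6 hours library 4 was low for Rhov (6.87 CPM, median 11.4 CPM) and Ocln (4.90 CPM, median 7.46 CPM).

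The effect of 5FU differed between the times for 2 of 6 genes tested by an interaction term in edgeR. The log2 fold change at 24 hours minus that at 6 hours was 2.67 for Grin2c (adjusted p = 9e-04) and 2.01 for Bicdl1 (adjusted p = 8e-10). Grin2c had at most 9 counts in a 5FU library and at most 1 count in a DMSO1 library at 24 hours. Its mean in DMSO1 was 0.23 CPM at 6 hours and 0.027 CPM at 24 hours. Its value of 2.67 is thus a fitted size that was not bounded by the floor.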

How the results depend on the processing

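The number of genes taken by the rule depended mainly on its limits. It was 111 with a lower limit of 0.5 CPM, 89 with an upper limit of 10 CPM, 198 with medians in place of means (187 of them among the 196), 187 with TMM-scaled CPM, 188 with DMSO1 at 24 hours as the low group (172 shared), and 193 to 204 when each library was left out.

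The count of genes higher in Dox at 6 hours ranged from 139 with a log2 change of at least 1 to 170 at a threshold of 0.1, with 163 by DESeq2, 157 with both groups fitted alone, 154 scaled by library size only and 158 to 161 without each library. Scaling by library size only moved the median of all genes in this comparison by -0.15. The lower count was 6 at a threshold of 0.1 and 6 by library size only, and 2 to 4 without each library. At a threshold of 0.1 36 were lower in 5FU at 6 hours, the 5FU counts after 24 hours were 54 higher and 44 lower, 19 were lower in Ace at 6 hours, the Ace counts after 24 hours were 73 higher and 13 lower, the DMSO1 against DMSO2 counts 32 higher and 8 lower, and 21 genes rose in DMSO1 from 6 to 24 hours. With a log2 change of at least 1, 4 were lower in Ace at 6 hours and 6 higher in DMSO1 than DMSO2. With only the groups compared in the fit, 9 were higher and 1 lower in DMSO1 than DMSO2 and 3 rose in DMSO1 with time. By library size only 2 were lower in DMSO1 than DMSO2, and by DESeq2 2.

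Leaving out each library gave 26 to 32 higher and 19 to 23 lower in 5FU at 6 hours, 26 to 40 and 16 to 23 at 24 hours (40 without library 1 of DMSO1), 31 to 37 and 7 to 9 in Ace at 6 hours, 45 to 49 and 3 to 6 at 24 hours (3 without library 2 of Ace or library 4 of DMSO2), 11 to 20 and 0 to 2 for DMSO1 against DMSO2, and 5 to 9 and 42 to 50 for DMSO1 with time (5 without library 2 at 6 hours). Grin2c in Dox at 6 hours, which was not called, changed sign to -0.13 by library size only and lay between -0.09 and 0.17 when each library was left out. The cause of these shifts was not tested beyond the fewer samples or other thresholds they use. Of 1014 alternative values for 49 named fold changes, 990 kept direction and call. Genes with a few counts per library limit what depth can show, above all Hrh3, Slc9a2 and Lrrc38. No paired analysis was possible because the columns carry no replicate numbers from the labels.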
